A study of Mus musculus with 6 samples.

Results

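Genes that mark fat cells, Adipoq, Plin1, Plin4, Cidec, Lep, Fabp4, Cfd, Pparg, Cd36 and Lpl, were followed, 10 in all, through 6 spontaneous mouse tumors. They are 10 of the 23358 gene entries in the deposited count table, and they were chosen by name, with it already known from these data that adipocyte genes were high in 1 of the tumors (tumor 36). All 10 were found in the table and all 10 passed the filter on low counts, under which 16415 genes were tested. Because tumor 36 chose the genes, its high values below are a description and support nothing by themselves.

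All 6 tumors came from female mice that carried NT3, an allele of NF-κB inducing kinase (NIK) without its TRAF3 binding domain, and a Cre transgene that switched it on. In the Osx-Cre;NT3 line, Cre was driven by the Osterix (Sp7) promoter of the bone-forming lineage, in a Tet-OFF construct, and the mice ate doxycycline chow, which holds this Cre off, until weaning. In the FSP1-Cre;NT3 line, Cre was driven by the S100a4 promoter, a promoter used to target fibroblasts that can also be on in myeloid cells. The 3 Osx-Cre;NT3 tumors (mice 13, 18 and 25) all lay on the trunk and appeared after 150, 168 and 115 days. The 3 FSP1-Cre;NT3 tumors (mice 27, 29 and 36) appeared after 101, 72 and 52 days. Tumor 29 lay on the trunk, and tumors 27 and 36 were perineal. Each tumor is named here by the number of its mouse. No tumor without Cre or without NT3 was among the samples, the parental strains differed between the lines (mixed C57Bl/6J and CD1 for Osx-Cre, FVB/n for FSP1-Cre), and both perineal tumors were of the FSP1-Cre;NT3 line. Line, strain background, doxycycline, site and latency therefore cannot be fully told apart.

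White adipocytes store triglyceride in a single large droplet. The transcription factor PPARγ drives their differentiation and keeps the mature program on, together with members of the C/EBP family. Lipoprotein lipase frees fatty acids from circulating lipoproteins, CD36 and FABP4 take them up and carry them, perilipins and CIDEC coat and enlarge the droplet, and the cell secretes adiponectin, leptin and adipsin. The skin of the trunk lies over a layer of dermal and subcutaneous fat, and the perineal region has fat of its own. The tumors had been trimmed of gross overlying tissue before RNA was extracted. In RNA from whole tumors, fewer cells of a type and less RNA per cell cannot be told apart.

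Library totals ran from 51824408 to 163297772 counts, tumor 18 being the deepest. Levels are given in CPM (counts divided by TMM-scaled library size). A count of 0 allowed a level of up to 0.0184 to 0.0579 CPM, for counting error only and on library totals without TMM scaling. Every deposited count was even. If each fragment was counted as 2, which was not tested, 3 fragments would be 6 counts and the bound 0.0367 to 0.116 CPM, and the levels below that rest on 2 or 4 counts would rest on 1 or 2 fragments. Tumor 36 stood apart from the other 5 beyond the fat genes. The summed level of 6 smooth muscle and myoepithelial markers was 2100 CPM in tumor 36 and 227 to 511 CPM elsewhere. The summed level of 11 mammary luminal and milk markers was 4060 CPM in tumor 36 and 521 to 997 CPM elsewhere. The keratins Krt8 (2250 CPM) and Krt19 (1090 CPM) and the claudin Cldn3 (397 CPM) made up most of the sum in tumor 36. Of the 11, 5 were highest there, as were 24.8% of all genes tested, and Krt18 was highest in tumor 18 (444 CPM, 245 CPM in tumor 36). The share of counts from the ribosomal RNA gene Rn45s was also highest in tumor 36, at 13.3% against 5.28% to 10.2% elsewhere, and its part in the results was not tested. Basal keratinocyte markers, 6 genes led by the keratins Krt5, Krt14 and Krt15, summed to 5690 CPM in tumor 36 and to 9960 to 14200 CPM in the other 5. The members' line differences and the median of each gene list are therefore also given without tumor 36.

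Promoter sequence is shown for 4 of the genes, all highest in tumor 36 and next in tumor 27, because C/EBP factors and PPARγ act on promoters of fat cells. The windows ran from 250 bases before to 50 bases after a RefSeq transcription start in build GRCm38.p6, and 8 of the 10 members had at least 1 window (11 windows in all). Fabp4 and Lpl had none. Both strands were searched for the C/EBP palindrome TTGCGCAA, for AGGTCA repeated with 1 base between (the direct repeat that PPARγ binds with its RXR partner) and for the CCAAT box, CCAAT. No match of one kind shared a base with a match of another. The lines below give the 150 bases before the start of Lep (chr6:29060071-29060220, plus strand) and of Adipoq (chr16:23146386-23146535, plus strand), and 30 bases around the nearest match in Plin1 (chr7:79732816-79732845, minus strand) and Cidec (chr6:113434944-113434973, minus strand). Capitals mark the matched letters, which read ATTGG where the CCAAT box is on the other strand.

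Lep: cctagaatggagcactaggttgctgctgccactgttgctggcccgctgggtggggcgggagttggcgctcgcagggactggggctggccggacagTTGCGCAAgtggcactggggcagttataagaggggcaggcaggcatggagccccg
Adipoq: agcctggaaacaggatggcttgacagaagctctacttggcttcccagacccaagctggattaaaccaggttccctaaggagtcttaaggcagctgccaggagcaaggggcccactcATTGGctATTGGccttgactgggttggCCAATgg
Plin1: tctgagaggcaTTGCCCAAgattccctgga
Cidec: ggagggctctaTTGCTCAAgggcccatggg

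Lep held the exact palindrome 55 to 48 bases upstream of its start, a match found in 0.183% of 32851 mouse promoter windows. Plin1 (58 to 51 bases upstream) and Cidec (198 to 191 bases upstream) held it with 1 mismatch, as did 5.92% of all windows. Adipoq had 3 CCAAT boxes within 34 bases of its start, and Plin4, Pparg and Cd36 also held that box, which stood in 37.4% of windows. The direct repeat was matched, with 2 mismatches, in Cd36 alone among the members (3.86% of windows). A match describes the letters and does not show binding.

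All 10 members were highest in tumor 36, as were 24.8% of the genes tested. Tumor 27, the other perineal tumor, came second for 9 of the 10, and 7.87% of the genes tested had that order of tumor 36 and then tumor 27. In those 9 genes both perineal tumors lay above all 4 trunk tumors, as in 9.98% of the genes tested. Tumor 27 alone was above every trunk tumor in the same 9 genes, against 15.5% of the genes tested, a count that does not use tumor 36, although the levels of tumor 27 were also known when the genes were chosen. Lpl was the exception. Among the trunk tumors, the FSP1-Cre;NT3 tumor 29 lay within the range of the 3 Osx-Cre;NT3 tumors for 7 members, above it for 1 (Plin4) and below it for 2 (Lep and Cd36).

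**Figure D1:**
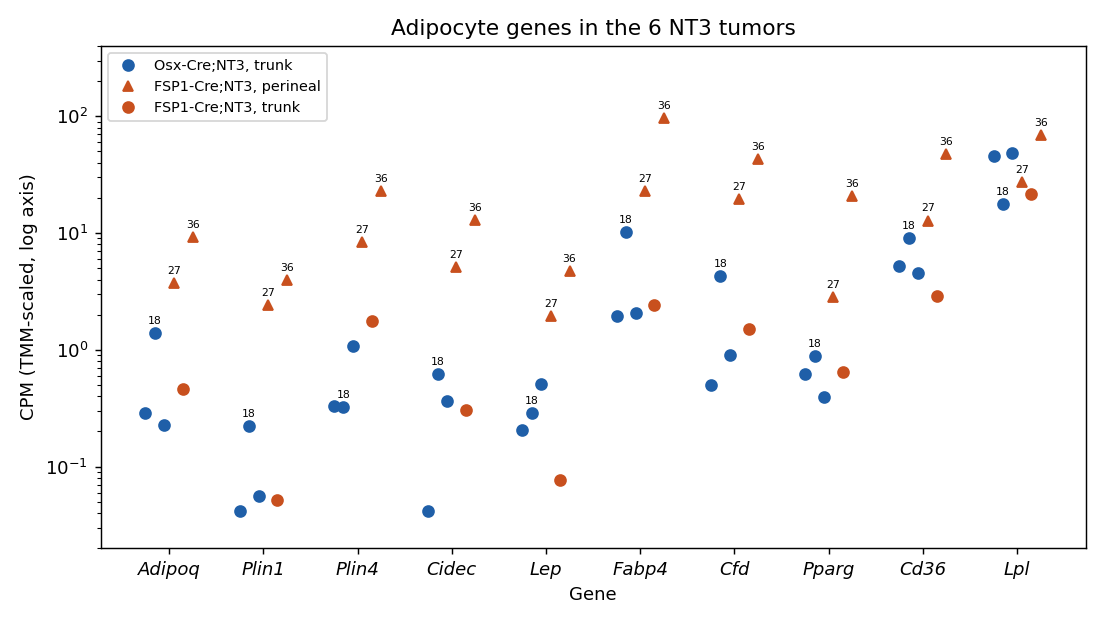
Level of each adipocyte gene in each tumor, in CPM after TMM scaling on a log axis; circles are trunk tumors, triangles perineal tumors, blue Osx-Cre;NT3 and orange FSP1-Cre;NT3, with tumors 18, 27 and 36 numbered. Tumor 36 is the highest point for every gene, tumor 27 is next for all but Lpl, and the orange circle (tumor 29) sits among or near the blue ones.

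Pparg (chr6:115361221-115490401), the master regulator of fat cell differentiation, was measured at 0.621, 0.883 and 0.394 CPM in the Osx-Cre;NT3 tumors 13, 18 and 25. In the FSP1-Cre;NT3 tumors 27, 29 and 36 it was at 2.85, 0.641 and 20.6 CPM. The trunk tumors of both lines overlapped, and the 2 perineal tumors were 3.23-fold (tumor 27 over the highest trunk tumor) and a further 7.23-fold (tumor 36 over tumor 27) above them. That last step was the largest of any member. Endothelial cells and macrophages also express Pparg, and in tumor 36 the macrophage receptors Mrc1 (243 CPM, 16.2 to 114 CPM elsewhere) and Cd163 (59.2 CPM, 2.36 to 16.2 CPM elsewhere) were high as well. Among the other 6 macrophage markers, Cd68 (55.3 CPM, 38.5 to 85.3 CPM elsewhere), C1qa (278 CPM, 184 to 501 CPM) and C1qb (291 CPM, 210 to 497 CPM) lay within the range of the other tumors. Adgre1 (89.3 CPM, 45.2 to 74.7 CPM elsewhere), Csf1r (195 CPM, 108 to 187 CPM) and Msr1 (40.5 CPM, 11.6 to 22.8 CPM) were highest in tumor 36. Of 9 sebaceous gland markers, 8 were highest in tumor 36. Among them were Krt79 (122 CPM, 2.7 to 13.7 CPM elsewhere), Awat1 (23.6 CPM, 0.104 to 1.82 CPM) and Scd3 (11.7 CPM, 0.338 to 1.16 CPM). The part of macrophages, endothelial cells or sebaceous glands in the Pparg level was not tested.

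The droplet coat genes had the 3 largest ratios of tumor 27 to the highest trunk tumor. Plin1 (chr7:79721164-79732776), perilipin 1, which guards the droplet against lipases, was nearly absent from the trunk. It stood at 0.0414, 0.221 and 0.0563 CPM in tumors 13, 18 and 25, and at 2.43, 0.0513 and 3.97 CPM in tumors 27, 29 and 36. In tumors 13, 25 and 29 these levels rest on 2, 4 and 4 counts, against 158 and 254 counts in tumors 27 and 36. Tumor 27 was 11-fold above the highest trunk tumor, and tumor 36 was 1.64-fold above tumor 27, the smallest step of any member between the perineal tumors.

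Cidec (chr6:113424636-113435755), which fuses small droplets into large ones, gave 0.0414, 0.624 and 0.366 CPM in tumors 13, 18 and 25 (2 counts in tumor 13). Tumors 27, 29 and 36 had 5.1, 0.308 and 13.0 CPM. Tumor 29 was inside the Osx-Cre;NT3 range, and tumor 27 was 8.17-fold above the highest trunk tumor. Plin4 (chr17:56100591-56109802), a coat of nascent droplets, was at 0.331, 0.325 and 1.07 CPM in tumors 13, 18 and 25 and at 8.35, 1.77 and 22.8 CPM in tumors 27, 29 and 36. It was the only member whose 2 lines did not overlap, a property of 17.0% of the genes tested. Its exons share 17 bases (0.294% of their length) with those of Hdgfl2 on the opposite strand, and no other member shared exon bases with another gene in the GENCODE annotation.

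Among the secreted proteins, Adipoq (chr16:23146536-23157968), which encodes adiponectin and is close to specific for adipocytes, was at 0.29, 1.39 and 0.225 CPM in tumors 13, 18 and 25. In tumors 27, 29 and 36 it was at 3.71, 0.462 and 9.32 CPM. The trunk tumors thus spread from 0.225 to 1.39 CPM, with tumor 18 at the top. Cfd (chr10:79890853-79892656), adipsin, a complement protease secreted by fat, had 0.497, 4.27 and 0.901 CPM in tumors 13, 18 and 25, and 19.5, 1.51 and 43.2 CPM in tumors 27, 29 and 36. Tumor 18 was again the highest of the trunk tumors. Lep (chr6:29060221-29073876), the satiety hormone leptin, was the lowest member per length. It measured 0.207, 0.286 and 0.507 CPM in tumors 13, 18 and 25, and 1.93, 0.077 and 4.72 CPM in tumors 27, 29 and 36. Tumor 29 was the lowest of all for leptin, so the FSP1-Cre;NT3 line held both the lowest and the highest values. Its level rests on 6 counts, or 3 fragments if each was counted as 2, and tumor 13 had 10 counts.

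Of the genes that take up and carry fatty acids, Fabp4 (chr3:10204343-10208576), the adipocyte fatty acid binding protein, was at 1.95, 10.2 and 2.06 CPM in tumors 13, 18 and 25. In tumors 27, 29 and 36 it was at 23.0, 2.41 and 97.1 CPM. Tumor 18 was 4.97-fold above the median of the other trunk tumors, and tumor 27 was only 2.25-fold above tumor 18. Cd36 (chr5:17781690-17888959), a fatty acid translocase found on adipocytes, endothelial cells and macrophages, gave 5.22, 9.0 and 4.53 CPM in tumors 13, 18 and 25 and 12.8, 2.9 and 47.7 CPM in tumors 27, 29 and 36. Its gap between tumor 27 and the trunk was 1.42-fold, the narrowest of the 9 genes with that order.

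Lpl (chr8:68880555-68906932), lipoprotein lipase, behaved differently. Its levels were 45.9, 17.6 and 48.7 CPM in tumors 13, 18 and 25, and 27.4, 21.8 and 69.5 CPM in tumors 27, 29 and 36. Tumor 27 lay below 2 of the Osx-Cre;NT3 tumors, and tumor 18, the highest trunk tumor for most other members, was the lowest of all. Lpl is made by muscle, macrophages and other cells as well as adipocytes.

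**Figure D2:**
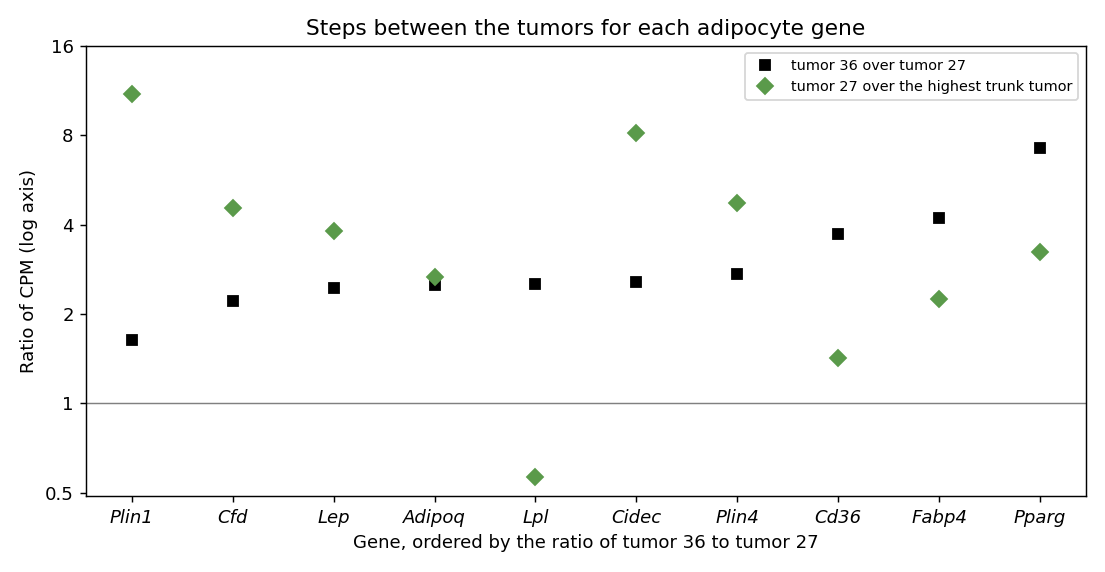
For each member, the ratio of CPM between tumor 36 and tumor 27 (black squares) and between tumor 27 and the highest trunk tumor (green diamonds), on a log axis with 1 marked by a line. The upper step runs from 1.64 for Plin1 to 7.23 for Pparg, and the lower one from 0.564 for Lpl to 11 for Plin1.

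The step from tumor 27 to tumor 36 was not the same for all members. Its median over the 10 was 2.55-fold, and over the 16379 tested genes with a count in tumor 27 it was 0.993. Plin1, Cfd, Lep, Adipoq, Lpl, Cidec and Plin4 stepped up by 1.64-fold to 2.73-fold. Cd36 (3.72-fold), Fabp4 (4.22-fold) and Pparg (7.23-fold) stepped up further. These are ratios of single tumors and carry no replicate error. Tumor 18 came next after tumors 36 and 27 for 7 of the 10 members, all but Plin4, Lep and Lpl.

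Per length (RPKM, reads scaled by gene length and library size), Fabp4 led the members at 29.0 ± 47.1 (SD, n = 6), followed by Cfd at 10.4 ± 15.1 and Lpl at 7.62 ± 3.92. Cd36 (2.82), Pparg (1.78), Adipoq (1.71), Cidec (1.57), Plin4 (0.827), Plin1 (0.49) and Lep (0.326) followed. Lpl and Cd36 differed by more than either SD, and every other pair of neighbors by less than the larger of their SDs. The summed RPKM of the 10 was 12.7 in tumor 13, 22.3 in tumor 18 and 14.9 in tumor 25. It was 68.8 in tumor 27, 10.2 in tumor 29 and 210 in tumor 36. The make-up of that sum also differed. Lpl gave 66.9% and 65.6% of it in tumors 13 and 25 and 42.1% in tumor 29, but 14.8% in tumor 18, 8.71% in tumor 27 and 6.59% in tumor 36. Fabp4 gave 54.2%, 46.1% and 58.1% in tumors 18, 27 and 36, and 17.5% to 29.5% in the other 3. By RPKM, Fabp4 was gene number 421 in tumor 36, 1965 in tumor 27 and 10026 in tumor 13.

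The line comparison asks whether tumors begun with either Cre differed. Fold changes are FSP1-Cre;NT3 over Osx-Cre;NT3 from edgeR's quasi-likelihood test, with p-values adjusted over all genes by Benjamini-Hochberg. All 10 members had a log2 fold change above 0, as did 51.1% of the genes tested, and the median was 3.29 against 0.01 over all genes. The largest were Plin4 at 4.25 (SE 1.04, adjusted p = 0.441), Plin1 at 4.23 (SE 1.44, adjusted p = 0.458) and Cidec at 4.12 (SE 1.41, adjusted p = 0.458). Pparg was at 3.66 (SE 1.23), Cfd at 3.48 (SE 1.29), Fabp4 at 3.10 (SE 1.30), Adipoq at 2.80 (SE 1.18) and Lep at 2.74 (SE 1.22), with adjusted p from 0.458 to 0.462. Cd36 was at 1.75 (SE 0.91, adjusted p = 0.473) and Lpl at 0.08 (SE 0.55, adjusted p = 0.958). No member passed an adjusted p of 0.05, nor did any gene (0.0% of 16415), and 5 members (Plin1, Plin4, Cidec, Cfd and Pparg) were higher and 0 lower at an unadjusted p under 0.05. Of the genes tested, 10.8% passed that p, 7.31% higher and 3.47% lower. DESeq2 called the same 5, with adjusted p from 0.000342 for Plin4 to 0.0364 for Cfd, and it called 2.72% of the 15461 genes with an adjusted p, 2.28% higher in FSP1-Cre;NT3. On simulated counts of this design, drawn with dispersions from edgeR, DESeq2 called 67 to 97 unchanged genes and edgeR 7 to 11. DESeq2 also called more of the changed genes, 79.5%, 88.5% and 97.5% at 4-fold, 8-fold and 16-fold, against 47.5%, 76% and 88% for edgeR. Because tumor 36 chose the members and is 1 of the 3 FSP1-Cre;NT3 tumors, these counts are not independent evidence of a line difference.

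The sign of most members differed when trunk tumors alone were compared, although for several of them by less than the standard error. Among trunk tumors alone, 3 Osx-Cre;NT3 against tumor 29, the median log2 fold change of the members was -0.64. Lep was at -2.10 (SE 1.25, with 6 counts in tumor 29), Cd36 at -1.12 (SE 0.63) and Lpl at -0.78 (SE 0.66). Plin1 at -1.11 (SE 1.65), Fabp4 at -0.99 (SE 1.17) and Adipoq at -0.49 (SE 1.33) lay within their SE of 0. So did Cfd at -0.34 (SE 1.30) and Cidec at -0.19 (SE 1.48). Pparg was at 0.01 (SE 0.87) and Plin4 at 1.62 (SE 0.93). For Adipoq, Cfd and Fabp4, tumor 29 lay above tumors 13 and 25 and below tumor 18. With site as a covariate the median was -0.63. That is the same comparison, because no Osx-Cre;NT3 tumor was perineal and the line difference then rests on tumor 29 too. Without tumor 36 the members' median fell to 1.63, with Plin1 at 3.42, Plin4 at 3.13, Cidec at 2.92, Cfd at 2.45, Adipoq at 1.69, Lep at 1.58, Pparg at 1.45, Fabp4 at 1.41, Cd36 at 0.33 and Lpl at -0.61, and adjusted p from 0.68 to 0.876. The trunk comparison has a single FSP1-Cre;NT3 tumor, which is assumed to vary as the others do, and a line difference within the perineal site could not be examined.

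**Figure D3:**
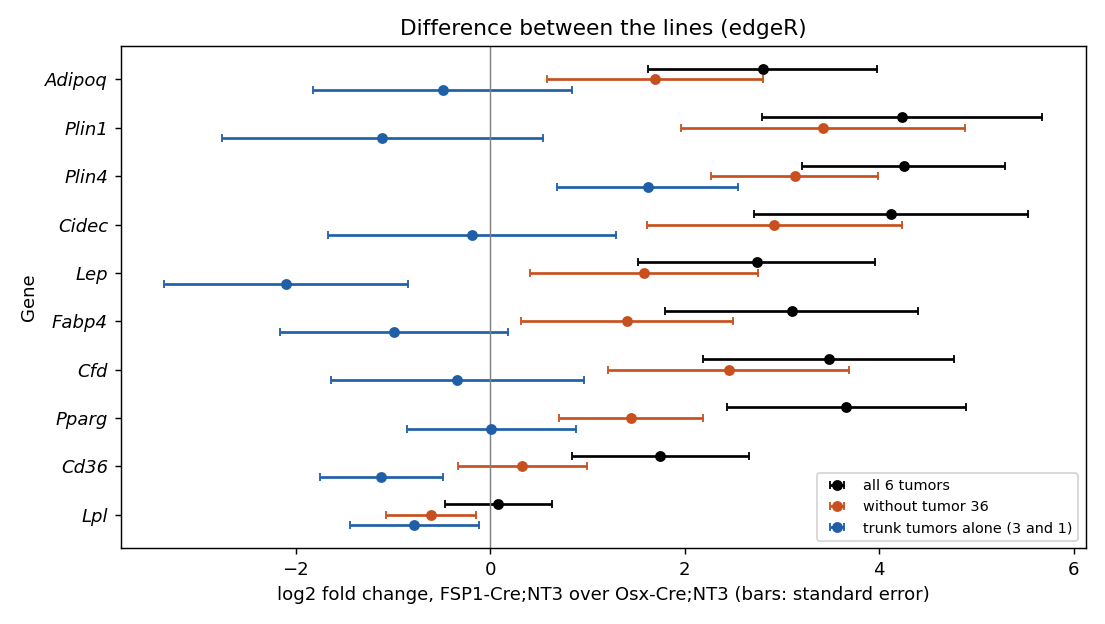
Log2 fold change of each member, FSP1-Cre;NT3 over Osx-Cre;NT3, with its standard error, from edgeR on all 6 tumors (black), without tumor 36 (orange) and on the 4 trunk tumors alone (blue). The black points lie between 0.08 and 4.25, and 8 of the 10 blue points lie below 0.

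Described by site, the mean of the 2 perineal tumors exceeded that of the 4 trunk tumors by a median of 3.75 on the log2 CPM scale. Without tumor 36, with tumor 27 alone for the perineal site, that median was 2.96, and without tumor 27 it was 4.97. Tumor 36 exceeded the mean of the other 5 by a median of 4.27 on the same scale, from 1.22 for Lpl to 4.73 for Cidec. No test was run on either contrast, since both use the values that chose the genes.

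Other mature adipocyte genes, a list of 16 that does not include the members, divided in the same way in part. Tumor 36 and then tumor 27 was the order for 8 of the 16, and the median log2 fold change between lines was 1.29 (0.64 without tumor 36, -0.66 in trunk tumors alone), with 6 higher and 0 lower at an unadjusted p under 0.05. The shares over all genes tested, for this list and those below, were 7.87% in that order and 24.8% highest in tumor 36. At that p they were 7.31% higher and 3.47% lower. Car3, a carbonic anhydrase abundant in fat, was at 1.66, 6.83 and 2.25 CPM in tumors 13, 18 and 25 and at 20.1, 2.15 and 51.3 CPM in tumors 27, 29 and 36. Retn, the adipokine resistin, was at 0 to 0.624 CPM in the trunk tumors, 2.0 CPM in tumor 27 and 5.75 CPM in tumor 36. Both showed tumor 18 as the highest trunk tumor, as Adipoq, Plin1, Cidec, Fabp4 and Cfd did. Pck1, which makes glycerol phosphate for triglyceride, kept to tumor 36, at 11.8 CPM against 0.103 to 0.553 CPM elsewhere. Slc2a4, the insulin-responsive glucose transporter, was lowest in tumor 36 (28.9 CPM, 32.6 to 74.6 CPM elsewhere), and Sncg, also made by neurons, was highest in tumor 18 (32.3 CPM).

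Genes of the lipid droplet and lipolysis that many cells share did not follow the members as a group. Of 13, 11 were tested, the median log2 fold change was -0.02 (0.35 without tumor 27, -0.23 without tumor 36), and 2 had the order of tumor 36 and then tumor 27. Plin2, the perilipin of most tissues, was at 97.9 CPM in tumor 36 and 36.1 CPM in tumor 27, the lowest of all 6. Plin3 had the opposite order, at 86.4 CPM in tumor 27 and 76.9 CPM in tumor 36, both below the trunk tumors (92.1 to 116 CPM). Pnpla2, the first lipase of the droplet, was at 55.4 to 76.6 CPM, with tumors 27 and 36 inside that range. Mgll, monoglyceride lipase, was at 25.0 CPM in tumor 27 and 111 CPM in tumor 36 against 9.15 to 17.9 CPM in the trunk tumors. Of the list, 2 were higher at an unadjusted p under 0.05 and 0 were lower. Cideb, best known from liver, stood at 7.44 CPM in tumor 36 and at 0.153 to 0.364 CPM in the other 5.

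Fatty acid and triglyceride synthesis genes were highest in tumor 36 in 10 of 15, and 5 had tumor 27 second. The median log2 fold change was 0.43 (0.78 without tumor 25, 0.24 without tumor 36), with 3 higher and 0 lower at an unadjusted p under 0.05. Gpd1, which makes glycerol phosphate, was at 19.6 CPM in tumor 36, 2.43 CPM in tumor 27 and 0.538 to 1.14 CPM in the trunk tumors. Mlxipl, the carbohydrate-responsive factor ChREBP, was at 4.03 CPM in tumor 36 and 0.166 to 0.46 CPM elsewhere. Elovl6, a fatty acid elongase, was at 114 CPM in tumor 36 and 15.2 CPM in tumor 27, inside the trunk range of 8.24 to 22.5 CPM. Acly, which supplies acetyl-CoA, was at 309 CPM in tumor 36 and 127 to 195 CPM elsewhere. Srebf1 and Agpat2 in tumor 36 lay within the trunk range. Tumor 27 lay slightly above it for Srebf1 (130 CPM, trunk 71.0 to 120 CPM) and slightly below it for Agpat2 (15.0 CPM, trunk 15.7 to 23.1 CPM).

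The partners of lipoprotein lipase and other uptake genes had no member with the order of tumor 36 and then tumor 27 (0 of 11), and their median log2 fold change was 0.20 over the 10 tested (0.12 without tumor 18 or tumor 36). Gpihbp1, which holds lipoprotein lipase on capillary walls, was lowest in tumor 36 at 13.8 CPM (20.1 to 34.8 CPM elsewhere). Fabp5, the epidermal relative of Fabp4, was at 354 CPM in tumor 27 and 550 CPM in tumor 36 and at 759, 792 and 559 CPM in the Osx-Cre;NT3 tumors, and was the 1 gene of the list past an unadjusted p of 0.05 (log2 fold change -0.73, SE 0.27, adjusted p = 0.458). The 2 FABP genes thus ranked the tumors in different orders.

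Among 16 transcription factors and PPAR partners, 4 followed the order of tumor 36 and then tumor 27, 4 were higher and 0 lower at an unadjusted p under 0.05, and the median log2 fold change was 0.47 (0.48 without tumor 36). Cebpa, which works with Pparg in adipocytes and is also made in epidermis, was lowest in tumor 36, at 176 CPM against 314 to 413 CPM in the other 5. Cebpd, an early adipogenic factor, was at 24.3 CPM in tumor 27 and 37.0 CPM in tumor 36 against 10.9 to 15.7 CPM in the trunk tumors. Ebf2 had the same order at lower levels (0.89 and 1.19 CPM against 0.207 to 0.338 CPM). Rxra, the partner receptor of PPARγ, was at 74.0 to 217 CPM with tumor 36 in the middle. Ppargc1a, a coactivator of mitochondrial genes, was at 10.8 CPM in tumor 36 and 0.052 to 0.41 CPM elsewhere.

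Of 12 other adipokines and adipokine receptors, 2 had tumor 36 first and tumor 27 second, and the median log2 fold change was 0.86 (0.23 without tumor 36). At an unadjusted p under 0.05, 1 was higher and 0 were lower, near the share of all genes tested (7.31% higher). Rarres2, chemerin, was at 44.7 CPM in tumor 36, 20.6 CPM in tumor 18 and 12.0 CPM in tumor 27. Rbp4 (5.63 CPM), Agt (5.63 CPM) and Sfrp5 (2.88 CPM) were highest in tumor 36, and each was at 1.18 CPM or less in the other 5. The adiponectin receptor Adipor1 was at 119 to 170 CPM in all 6.

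The marker that defines brown fat was at or near 0. Ucp1, the uncoupling protein, had no count in 5 tumors, which allowed up to 0.0398 to 0.0579 CPM without TMM scaling, and stood at 0.065 CPM in tumor 18. Of 9 brown and beige fat genes, 7 were tested, 0 had the order of tumor 36 and then tumor 27, and the median log2 fold change was 1.13 (-0.95 without tumor 36). Cidea (8.88 CPM) and Elovl3 (26.0 CPM) were high in tumor 36, and both were at 0.828 CPM or less elsewhere, tumor 27 included. Cox7a1 and Cox8b, subunits of cytochrome oxidase, were also highest in tumor 36. Cox7a1 was 23.4-fold higher there than in tumor 27 and at 0.43 to 3.04 CPM in the other 5, and Cox8b was at 0.938 CPM against 0.364 CPM or less. Cidea and Elovl3 are also made by sebaceous glands. Of 9 skeletal muscle markers, given below, 3 were highest in tumor 36, Ckm and Acta1 among them, as were 24.8% of all genes tested. Others, such as Myh1 and Myh4, were lowest there. The part of muscle in the Cox7a1 and Cox8b levels was not tested.

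Progenitor genes of the fat lineage, 10 with Pparg counted among them, had a median log2 fold change of 0.63 (0.37 without tumor 36, 0.11 in trunk tumors alone), with 5 higher and 0 lower at an unadjusted p under 0.05 and 4 in the order of tumor 36 and then tumor 27. Pi16, a marker of adventitial fibroblast progenitors, was at 2.65, 17.0 and 4.2 CPM in tumors 13, 18 and 25 and at 55.3, 13.2 and 62.5 CPM in tumors 27, 29 and 36. Cd34, shared with endothelium, was at 120 CPM in tumor 27 and 152 CPM in tumor 36 against 61.3 to 102 CPM in the trunk tumors. Dlk1, the preadipocyte factor, was at 0.117 to 2.14 CPM and highest in tumor 25, and Icam1 was lowest in tumor 36 (161 CPM, 271 to 487 CPM elsewhere). No gene of any list passed the adjusted threshold of edgeR.

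Markers of other cells that can express some members moved as follows, beside 24.8% of all genes tested that were highest in tumor 36. The 8 endothelial markers summed to 153 to 372 CPM in the Osx-Cre;NT3 tumors and to 540, 398 and 435 CPM in tumors 27, 29 and 36, and 1 of 8 was highest in tumor 36. The 8 macrophage markers summed to 721 to 1300 CPM and to 648 to 1250 CPM in the 2 lines, and 5 of 8 were highest in tumor 36. The 9 sebaceous gland markers summed to 497 CPM in tumor 36 and 216 to 323 CPM elsewhere, with 8 of 9 highest in tumor 36 and tumor 27 at 235 CPM. Skeletal muscle markers, which can come with Lpl, Cd36 and Fabp4, summed to 19.4 CPM in tumor 27, the lowest of the 6, to 79.5 CPM in tumor 36 and to 25.1 to 105 CPM elsewhere. Myh1 gave most of the sum in tumor 29 (84.2 CPM) and was lowest in tumor 36 (8.41 CPM). Myh4 was lowest in tumor 36 too (0.0625 CPM on 4 counts, 0.124 to 4.0 CPM elsewhere). Of the 9 muscle markers, 3 were highest in tumor 36, among them Ckm (21.4 CPM, 0.645 to 7.53 CPM elsewhere) and Acta1 (35.8 CPM, 0.982 to 21.3 CPM). The myogenic factor Myod1 stood at 0.0563 CPM or less throughout. Of the milk protein genes, Wap and Lalba were at 0.104 CPM or less in all 6, while Csn2 was at 210, 82.3 and 347 CPM in the Osx-Cre;NT3 tumors 13, 18 and 25 and at 115, 111 and 56.6 CPM in the FSP1-Cre;NT3 tumors 27, 29 and 36, lowest in tumor 36. In tumor 27 the endothelial sum lay above the trunk tumors of both lines (153 to 398 CPM), and the macrophage sum (885 CPM) lay within their range. That sum hid differences between its genes, since 3 of the 8 macrophage markers were above all 4 trunk tumors in tumor 27. They were Mrc1 (114 CPM, trunk 16.2 to 45.9 CPM), Cd163 (16.2 CPM, trunk 2.36 to 6.94 CPM) and Csf1r (187 CPM, trunk 108 to 164 CPM). The sums for sebaceous, smooth muscle (315 CPM), mammary (521 CPM) and skeletal muscle markers in tumor 27 lay within or below the range of the trunk tumors. The members' sum (107 CPM) lay above it (31.9 to 58.8 CPM). Single genes differed from these sums too. In tumor 27, Cnn1 (4.91 CPM), Oxtr (1.84 CPM), Prlr (13.0 CPM), Areg (0.829 CPM) and Csn3 (0.276 CPM) were above all 4 trunk tumors. Their highest trunk levels were 3.8, 0.621, 10.8, 0.416 and 0.039 CPM. The other genes of these lists were not above them. In tumor 36 the members were high together with the sums of the sebaceous, smooth muscle and mammary lists, although 6 of the 11 mammary genes were not highest there. The part of any of these cells in the member levels was not tested.

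**Figure D4:**
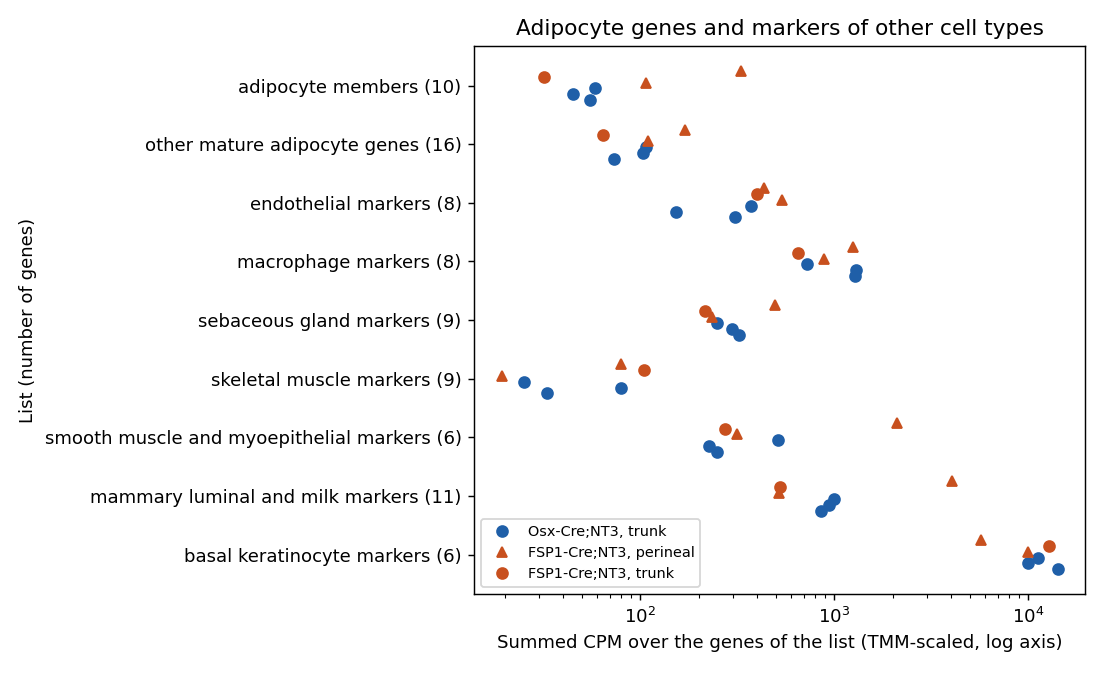
Summed CPM of the adipocyte members, of the other mature adipocyte genes and of 7 marker lists for other cell types, for each tumor on a log axis (circles trunk, triangles perineal, blue Osx-Cre;NT3, orange FSP1-Cre;NT3). The members sum to 107 CPM in tumor 27 and 332 CPM in tumor 36 against 31.9 to 58.8 CPM in the trunk tumors. The smooth muscle, mammary and sebaceous sums are also highest in tumor 36, with tumor 27 within or below the trunk range.

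Likeness to the adipocyte pattern was measured as Pearson's r, over the 6 tumors, between a gene's log2 CPM and the mean standardized level of Adipoq, Plin1, Plin4 and Cidec. Of 14152 genes searched, 96 had r above 0.95. The 8 most alike outside the members were Sod3 (r = 0.997), Alox5 (0.994), Plcl1 (0.992), Enpep (0.991), Prkd3 (0.99), Lipg (0.99), Fbln2 (0.99) and Cd274 (0.989). Without tumor 36 they had r between 0.984 and 0.995. Sod3, an extracellular superoxide dismutase, was at 7.66, 16.9 and 10.6 CPM in tumors 13, 18 and 25 and at 43.6, 13.5 and 67.2 CPM in tumors 27, 29 and 36. Lipg, endothelial lipase, was at 1.49 to 3.17 CPM in the trunk tumors, at 8.66 CPM in tumor 27 and at 21.7 CPM in tumor 36. Among members outside those that set the pattern, Cfd had r = 0.983, Fabp4 0.956, Pparg 0.934, Lep 0.891, Cd36 0.884 and Lpl 0.269, and Lpl had -0.397 without tumor 36. With 6 points that share their libraries, these values are descriptions.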

How the data were processed

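Messenger RNA of 6 tumors, 1 per mouse, was sequenced on Illumina libraries. The authors deposited raw counts per gene and RPKM values, both in 1 table. The study's methods name HISAT2 and featureCounts on mm10, while the submitters' processing notes name bcl2fastq, TopHat2 2.0.6 and HTSeq, and the annotation and strand setting are not given in the sources used here. Counts were used as deposited (all even, and halving them was tried). RPKM, deposited by the authors, served only to order genes by level per length.

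Counts were scaled by TMM, genes were kept by filterByExpr, and the lines were compared with edgeR 4.0.16 (R 4.3.3) by its quasi-likelihood test, with DESeq2 1.42.0 as an alternative. Levels are CPM, and log2 CPM used a prior count of 2. The samples were grouped by the line in their titles. The common biological coefficient of variation was 0.478. On simulated counts for the FSP1-Cre;NT3 against Osx-Cre;NT3 comparison, edgeR called 47.5% of 200 genes changed 4-fold (16196 genes run), 76% at 8-fold (16237 genes) and 88% at 16-fold (16212 genes). With 1 tumor per mouse, p-values measure the spread between these mice. The members and lists were chosen with earlier results of these data known. The genes named are all 10 members and, from each list, the 3 highest by mean RPKM and the 3 with the largest ratio of highest to median tumor, plus the 8 genes most like the pattern. Ucp1, Myod1, Wap and Lalba were named because they define a cell type, and Csn2, Csn3, Prlr, Oxtr, Adgre1, Csf1r and Msr1 after their values were seen. Promoter sequences are from RefSeq (GRCm38.p6). Repeated symbols (43 entries) were kept apart.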

Additional observations from a re-analysis of the deposited data

How the results depend on the processing

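No paired analysis was possible because the replicate numbers are mouse numbers and the 2 lines share none. The alternatives were library sizes alone, upper-quartile scaling, DESeq2, no filter, at least 10 counts in every tumor, halved counts, tumor site as a covariate, trunk tumors alone and leaving out each tumor. Under DESeq2, 420 genes were called over all genes, 5 among the members, 1 of the other mature adipocyte genes, 2 of the lipid droplet genes, 1 of the synthesis genes and 2 of the progenitor genes, where edgeR called 0 in each, and edgeR had 1770 genes at an unadjusted p under 0.05 (DESeq2 2343). With site as a covariate and in trunk tumors alone the median log2 fold changes were -0.63 and -0.64 for the members, -0.66 and -0.66 for other mature adipocyte genes, 0.09 and 0.09 for synthesis, -0.03 and -0.04 for lipase partners, -0.0 and -0.01 for adipokines, -1.20 and -1.21 for brown fat, and 0.12 and 0.11 for progenitor genes. The members reversed with site as a covariate were Adipoq (-0.48), Plin1 (-1.12), Cidec (-0.20), Lep (-2.10), Fabp4 (-0.98), Cfd (-0.34), Cd36 (-1.11) and Lpl (-0.78), and in trunk tumors alone the same 8, at -0.49, -1.11, -0.19, -2.10, -0.99, -0.34, -1.12 and -0.78. In both settings Adipoq, Plin1, Cidec, Fabp4 and Cfd lay within their standard error of 0. Lpl also reversed without tumor 18 (-0.26) and without tumor 36 (-0.61), and over the omissions ran up to 0.36. With library sizes alone the lipase partner median was 0.30 and the median of all genes shifted to 0.126, and with at least 10 counts in every tumor the adipokine median was 0.44. Leaving out 1 tumor at a time, the medians ran over 1.63 to 4.05 for the members, -0.23 to 0.35 (without tumor 27) for lipid droplet genes, 0.24 to 0.78 (without tumor 25) for synthesis genes, 0.12 (without tumor 18 or 36) to 0.20 for lipase partners, 0.23 (without tumor 36) to 0.81 for adipokines, -0.95 (without tumor 36) to 1.82 for brown fat genes and 2.96 (without tumor 36) to 4.97 (without tumor 27) for perineal over trunk. The cause of these shifts was not tested. The members above all trunk tumors in both perineal tumors numbered 9 to 10 under every such omission, an alternative chosen after the data were seen. Leaving out a tumor can only keep or raise this count. It could not fall below the 9 found with no omission, so it does not measure stability. Depth limits Plin1 and Cidec, which rest on 2 to 4 counts in some trunk tumors, and Lep, which rests on 6 counts in tumor 29. Plin1, Cidec and Lep gave no value with at least 10 counts in every tumor (Plin1 also with halved counts).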
